A study of Mus musculus with 27 samples.

Results

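The genes described here encode the constitutive proteasome and the proteins that assemble, cap or inhibit it. They were taken as every array probe whose gene name in the scanner file of the first naïve array starts with Psm, then a letter from a to g and a number. The immunoproteasome subunits Psmb8, Psmb9 and Psmb10 were left out. The rule found 58 probes for 46 gene names among 55681 non-control probes. Of these, 56 probes for 44 genes passed the detection filter (above background by the scanner's stricter flag on 2 or more arrays of any condition) and were tested, among 30814 tested probes in all. The genes not tested were Psma8, a core subunit known from testis, and Psmb11, known from the thymus, which were well above background on 1 and 2 of the 25 arrays.

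The 26S proteasome degrades ubiquitin-tagged proteins. Its barrel-shaped core is built from alpha subunits (Psma) and beta subunits (Psmb), and Psmb5, Psmb6 and Psmb7 carry the catalytic sites. The 19S cap (Psmc ATPases and Psmd subunits) recognises, unfolds and feeds in the substrate. PA28 caps open the core without ATP: Psme1 and Psme2 form the interferon-inducible PA28 alpha-beta ring, and Psme3 forms the nuclear PA28 gamma ring. In macrophages the proteasome also releases NF-κB from its inhibitor and makes peptides for MHC class I.

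Bone marrow-derived macrophages from female C57BL/6 mice aged 6 to 8 weeks were grown for 7 days in L929-conditioned medium. Naïve cells received no ligand. Acute cells received 1 Toll-like receptor ligand for 4 h, and re-stimulated cells had the same ligand for 24 h, a wash, and the ligand again for 4 h. The naïve group served both states, and no group had only the 24 h of ligand. In re-stimulated against naïve cells, time in culture, the first exposure and the second therefore cannot be told apart. The ligands were LPS (TLR4) and Pam3CSK4 (TLR2), each at 100 ng/ml, PolyIC (TLR3) at 10 µg/ml, and CpG (TLR9), for which the labels give 100 µM and the study's methods a lower dose. Naïve, acute LPS, acute and re-stimulated CpG, re-stimulated Pam3CSK4, and acute and re-stimulated PolyIC had 3 arrays each. Re-stimulated LPS and acute Pam3CSK4 had 2, because the authors left out 1 array of each for low quality. The methods call the replicates different mice at one place and pools of mice at another. The p-values measure the spread between these samples only. No other condition shared the 3 slides of the acute LPS arrays or their 2 scan days. Their scanner files also name another array design file than those of all other arrays. Acute LPS therefore cannot be told apart from slide, scan day or design file. The remaining conditions had 3 slides and 1 scan day in common. Between 41.2% and 52.9% of spots were well above background on 24 of the 25 arrays, against 73.65% on naïve replicate 3. All 7 macrophage markers checked, among them Csf1r, Cd68 and Lyz2, were well above background on all 25 arrays. So were the T cell genes Cd3e and Cd4 and the neutrophil genes Camp and Elane. The other T cell genes listed were well above background on few arrays, Cd3g on 2 and Cd8a on 1. The other neutrophil genes, Ngp and Ly6g, were so on 17 and 16. In a bulk sample, fewer cells of a type and less RNA per cell cannot be told apart.

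Values are the authors' normalized log2 intensities. A probe was called where limma gave an adjusted p (Benjamini-Hochberg over the 30814 probes) under 0.05 in a fit of the 2 groups compared. "Rose" and "fell" are used for called changes only. For a gene with several probes, the brightest tested probe stands for the gene.

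Across the core and the 19S cap, re-stimulated cells lay above naïve cells by a small amount with each ligand, while the acute medians were between -0.27 and 0.24. The median log2 difference from naïve over the 14 core genes was 0.45 for re-stimulated LPS, 0.38 for CpG, 0.38 for Pam3CSK4 and 0.49 for PolyIC. Over the 17 genes of the 19S cap it was 0.33, 0.32, 0.35 and 0.31. The medians over all tested probes in these 4 comparisons were between -0.02 and 0.04. These comparisons share the naïve arrays, so they are not independent of each other. Nor can they tell time in culture, the first exposure and the second exposure apart.

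After acute stimulation the core median was -0.08 with LPS, 0.06 with CpG, 0.17 with Pam3CSK4 and 0.07 with PolyIC, and the 19S median was -0.27, 0.07, 0.24 and -0.14. With all 27 arrays, which add 1 acute Pam3CSK4 array, the Pam3CSK4 medians were -0.23 (core) and -0.46 (19S), against -0.49 over all probes. The shift was visible on single arrays. The lowest re-stimulated array had a core median 0.24 above the naïve mean, while the naïve arrays lay at -0.18, -0.02 and 0.18. For the 19S genes, naïve replicate 3 lay at 0.19 and overlapped with the lowest re-stimulated arrays, at 0.17 for Pam3CSK4 replicate 2 and 0.19 for CpG replicate 2. Each re-stimulated array nonetheless lay above the naïve array of its own number.

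**Figure D1:**
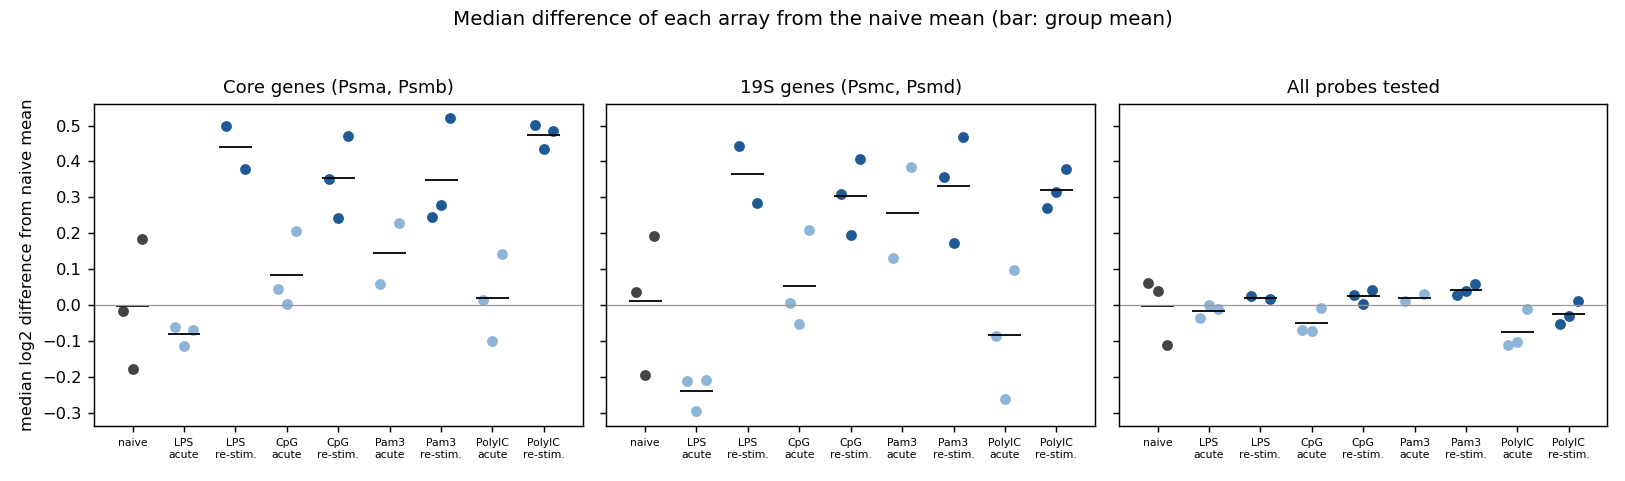
Each point is 1 array, placed by the median, over the genes of a class, of its log2 difference from the naïve mean (vertical axis), for the 9 conditions (horizontal axis); bars are group means. The core points of all re-stimulated arrays lie between 0.24 and 0.52, above the naïve arrays (at most 0.18), while the medians of all tested probes stay between -0.11 and 0.06.

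By gene, the mean was higher than naïve in 39 of 44 genes for re-stimulated LPS, 38 for CpG, 40 for Pam3CSK4 and 40 for PolyIC. Over all tested probes the share with a higher mean was 50.8%, 51.5%, 52.9% and 48.5%. Arrays that did not overlap with naïve and lay above it were seen for 30 of 44 genes with re-stimulated LPS (23.7% of all probes), 14 with CpG (19.1%), 16 with Pam3CSK4 (16.7%) and 25 with PolyIC (16%). Most of these differences did not pass the test. The calls were 1 gene for re-stimulated LPS (percentage of all probes called 3.98%), 4 for CpG (11.3%), 0 for Pam3CSK4 (3.94%) and 3 for PolyIC (7.66%), all higher than naïve. Without the detection filter none of these 8 calls passed, by the probe that stands for the gene (limma adjusted p 0.0511 to 0.123). For Pam3CSK4, limma gave 8 genes an unadjusted p under 0.05, against 24.1% of all probes.

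With 1 limma fit over all 9 groups, which shares 1 estimate of the spread, more of the 56 probes passed: 9 higher and 1 lower for re-stimulated LPS (17% of all probes called), 11 and 2 for CpG (20.7%), 13 and 2 for Pam3CSK4 (17%), and 15 and 0 for PolyIC (20.2%). In that fit Psmb2 and Psmb7, both core beta subunits, were higher than naïve in all 4 re-stimulated conditions. The log2 difference of Psmb7 was between 0.47 and 0.49, with adjusted p between 0.0177 and 0.042. Psma4, a core alpha subunit, was also higher in all 4 by 1 of its 2 probes, by 0.41 to 0.61.

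**Figure D2:**
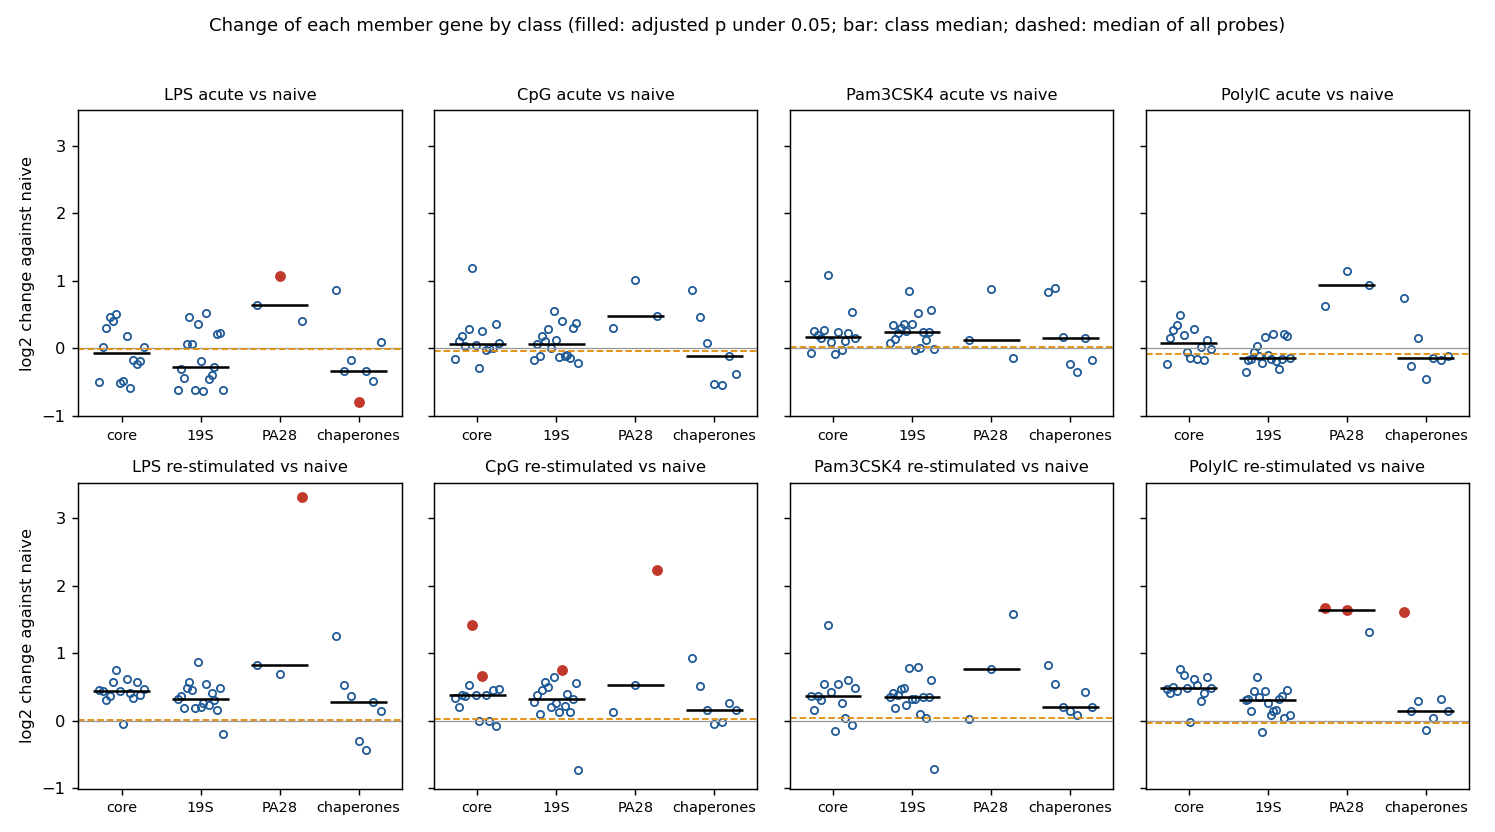
Each point is 1 gene's log2 change against naïve (vertical axis), by class (horizontal axis: core, 19S, PA28 as Psme1 to Psme3, assembly chaperones), for acute (top) and re-stimulated (bottom) cells. Filled points were called, short bars are class medians and the dashed line is the median of all probes; re-stimulated core and 19S medians lie between 0.31 and 0.49, and the largest single change is Psme3 after LPS re-stimulation (3.32).

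Among the PA28 genes, Psme1 (probe at mm9 chr14:56200194-56200253, plus strand) had log2 intensities of 13.63, 13.67 and 13.35 in naïve cells. In re-stimulated PolyIC cells it had 15.56, 15.53 and 14.59, all above the naïve arrays, and it rose by 1.68 ± 0.31 (SE, n = 3 and 3 arrays, 3.2-fold, limma adjusted p = 0.0328). Re-stimulated CpG (13.7, 13.43 and 13.9) and Pam3CSK4 (13.56, 13.5 and 13.64) overlapped with naïve. Re-stimulated LPS lay between, at 14.56 and 14.21 (difference from naïve 0.84 ± 0.23, adjusted p = 0.111). With the replicate number as a block the PolyIC call held (adjusted p = 0.0494).

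Psme2 (brightest probe at mm9 chr14:56206296-56206355, minus strand) had 15.23, 15.46 and 16.1 in naïve cells and 17.39, 17.37 and 16.98 after PolyIC re-stimulation. It rose by 1.65 ± 0.28 (3.14-fold, limma adjusted p = 0.0277), and with the replicate block the adjusted p was 0.0788. It lay above all naïve arrays with every acute ligand as well, as Psme1 did with each but Pam3CSK4. Psme2 rose by 1.06 ± 0.26 with acute LPS (16.71, 16.61 and 16.66; adjusted p = 0.0303), and the differences for acute CpG, Pam3CSK4 and PolyIC were 1.02, 0.88 and 1.15 (adjusted p = 0.106, 0.426 and 0.0668). The acute LPS call was lost with median scaling (adjusted p = 0.083) and without any array other than naïve replicate 3 (up to 0.0965). Without any 1 of 4 of the 6 arrays the PolyIC calls of Psme1 and Psme2 were lost, with adjusted p of up to 0.126 and 0.113 and log2 changes of at least 1.51 and 1.47; they were kept without naïve replicate 3 or without re-stimulated PolyIC replicate 3.

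The difference between ligands was tested directly by a moderated F test in the fit over all 9 groups. Psme1 differed among the 4 re-stimulated conditions (range of means 1.66, limma adjusted p = 0.000409), as did Psme2 (1.12, adjusted p = 0.0396), 2 of 44 genes against 7.56% of all probes. Re-stimulated PolyIC exceeded CpG by 1.55 ± 0.24 for Psme1 (adjusted p = 0.000756) and by 1.12 ± 0.27 for Psme2 (0.0155), and Pam3CSK4 by 1.66 and 0.88 (0.000135 and 0.0412). PolyIC against LPS did not pass for either (0.84 ± 0.26, adjusted p = 0.137; 0.95 ± 0.30, 0.143). The F test of Psme1 passed without each of the 11 arrays in turn, and that of Psme2 was lost without 8 of them (adjusted p up to 0.226). With median scaling both were lost (adjusted p = 0.0819 for Psme1 and 0.31 for Psme2), and that of Psme2 also with all 27 arrays (0.309) and without the detection filter (0.0817).

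Psme2 is uncertain in 2 ways: a near-identical copy, Psme2b, exists in mouse, and its probes disagreed. A second probe followed the first (PolyIC re-stimulated against naïve 1.91 ± 0.28 in the 9-group fit). The third, annotated to an Ensembl transcript that spans 219297 bases of chromosome 14, was called higher with acute LPS and PolyIC (2.00 and 1.81), but its mean lay below naïve in the other 6 conditions. It had 8.995, 9.046 and 8.133 in naïve cells and 3.018, 5.056 and 3.896 after Pam3CSK4 re-stimulation (change of Psme2 by this probe -4.73, limma adjusted p = 0.0217 in the 2-group fit and 0.0677 with the replicate block). It was well above background on 23 of 25 arrays and was not used for the gene.

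Psme3 (probe at mm9 chr11:101184289-101184348, plus strand) had the largest change of all member genes, each taken by the probe that stands for it. Naïve cells had 10.79, 11.29 and 9.965, and re-stimulated LPS cells 13.98 and 14.03. The gene rose by 3.32 ± 0.43 (9.97-fold, n = 2 and 3, limma adjusted p = 0.0331), a call that was lost with all 27 arrays (2.72, adjusted p = 0.156). Re-stimulated CpG cells had 12.68, 13.76 and 12.31, and the gene rose by 2.24 ± 0.49 (4.71-fold, adjusted p = 0.0406; 0.0269 with the replicate block). For both ligands no array overlapped with naïve.

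Pam3CSK4 re-stimulation split: 13.6 and 12.72 on replicates 1 and 2, but 10.48 on replicate 3, within the naïve range (1.58 ± 0.83, adjusted p = 0.298). PolyIC re-stimulation had 11.8, 12.14 and 12.06 (1.32 ± 0.36, adjusted p = 0.0845). After acute stimulation Psme3 overlapped with naïve for all 4 ligands, with differences of 0.41 (LPS), 0.47 (CpG), -0.14 (Pam3CSK4) and 0.94 (PolyIC), none called (limma adjusted p of 0.397 or more). Against acute LPS, re-stimulated LPS was higher by 2.91 ± 0.20 (adjusted p = 0.00062), a call that held without each of the 5 arrays in turn but not with all 27 arrays (2.32, adjusted p = 0.0563), and which cannot be told apart from slide. The calls against naïve were lost without any array other than naïve replicate 3, with adjusted p of up to 0.266 for LPS and 0.109 for CpG and log2 changes of at least 3.29 and 1.81 in those fits. Among ligands the F test over re-stimulated cells did not call Psme3.

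The neutrophil marker Ly6g was also high in re-stimulated LPS cells. Ly6g averaged 7.02 in naïve, 12.2 in re-stimulated LPS and 10.5 in re-stimulated PolyIC cells, but 7.59 in re-stimulated CpG cells, where Psme3 was also high. Camp averaged 9.76 in naïve, 11.05 in re-stimulated LPS, 11.4 in re-stimulated PolyIC and 11.82 in acute CpG cells. Ngp (9.33 and 9.35) and Elane (12.12 and 12.2) were nearly the same in naïve and re-stimulated LPS cells. All 4 neutrophil markers (Ly6g, Camp, Ngp and Elane) were well above background on every re-stimulated LPS array and 3 of 4 on every naïve array. Their summed log2 level was 13.26 to 13.98 in re-stimulated LPS, 11.91 to 13.48 in naïve and 11.99 to 12.64 in re-stimulated CpG cells. Their part in the result was not tested.

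Psme4, which encodes the separate activator PA200, lay above naïve (9.35, 9.239 and 9.401) on every acute array, with 10.1, 9.541 and 10.31 for LPS and 9.73, 10.07 and 9.977 for PolyIC (0.65 ± 0.25 and 0.60 ± 0.17, limma adjusted p = 0.1 and 0.123). It was not called by this probe. A second, dimmer probe of Psme4 was called higher after acute PolyIC in the 2-group fit (0.82) but not with the replicate block (adjusted p = 0.0699). Psmf1, the inhibitor PI31, was 9.175, 9.121 and 9.105 in naïve cells, 8.603, 8.352 and 8.818 after acute LPS, and 9.767 and 9.629 after LPS re-stimulation. It rose between acute and re-stimulated LPS (1.11 ± 0.23, limma adjusted p = 0.0145), and neither state was called against naïve (adjusted p = 0.0889 and 0.151).

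**Figure D3:**
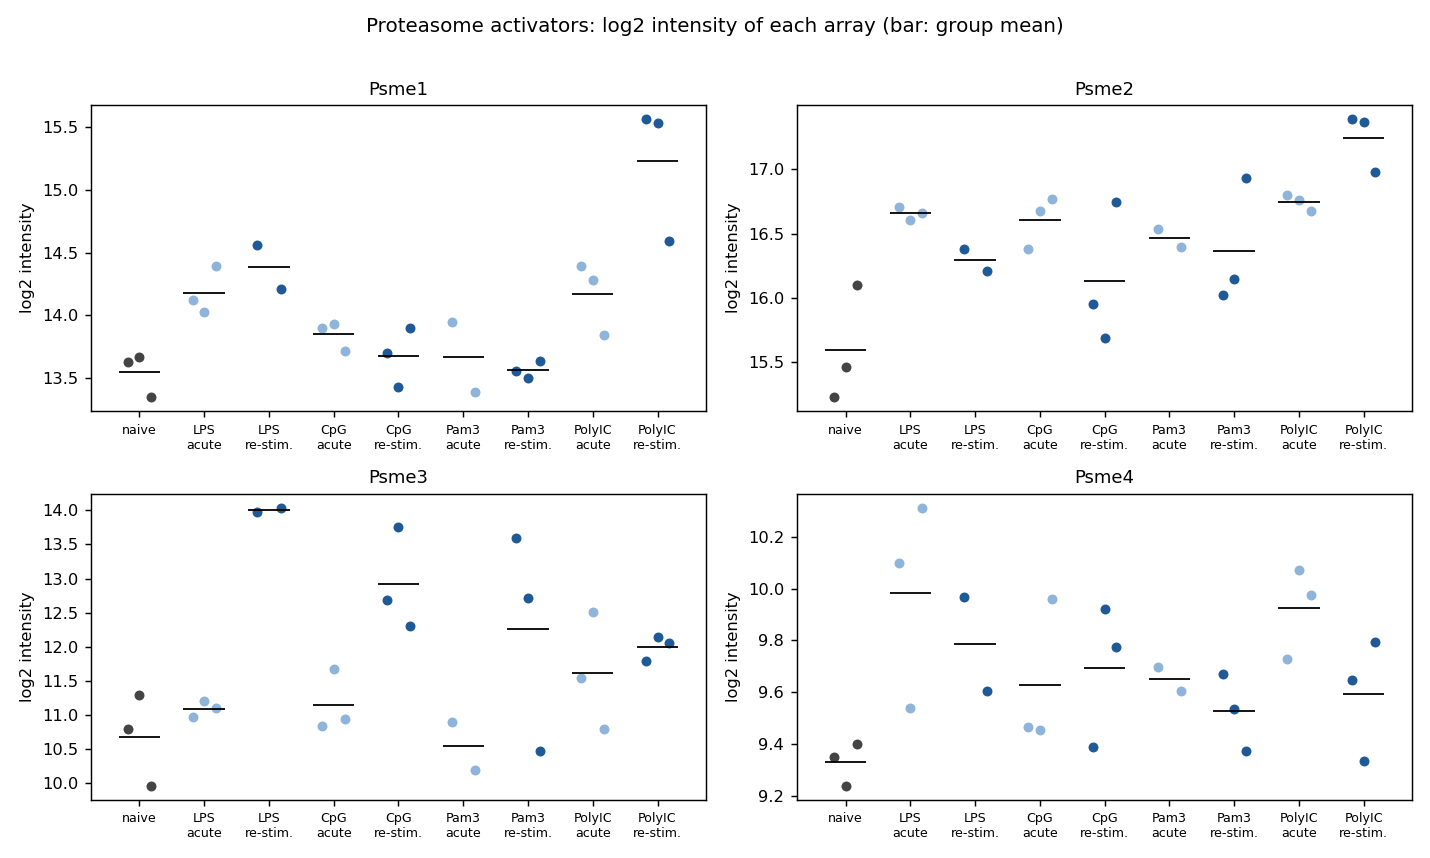
Log2 intensity (vertical axis) of Psme1, Psme2, Psme3 and Psme4 on each array (points) in the 9 conditions (horizontal axis), with bars at group means. Psme1 and Psme2 are highest after PolyIC re-stimulation (means 15.2 and 17.2), Psme3 after LPS re-stimulation (14), and Psme3 on Pam3CSK4 re-stimulated replicate 3 (10.48) sits apart from the other two.

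Psme1 and 4 other member genes had the letters GAAA, any 2 letters and GAAA again, a core of the interferon-stimulated response element, in their promoter window (RefSeq, GRCm38.p6, 250 bases before to 50 after the start, both strands). These stretches of 30 bases, 5′ to 3′ on the gene's strand with the match in capitals, are shown because interferon is known to induce PA28.
Psme1 (chr14:55578493-55578522, plus): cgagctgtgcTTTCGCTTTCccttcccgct
Psmb3 (chr11:97703261-97703290, plus): cacagtgactTTTCACTTTCcgctttccat
Psmd4 (chr3:95042675-95042704, minus): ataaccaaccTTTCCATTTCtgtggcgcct
Psmd9 (chr5:123228021-123228050, plus): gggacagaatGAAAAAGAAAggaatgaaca
Psmg4 (chr13:34162969-34162998, plus): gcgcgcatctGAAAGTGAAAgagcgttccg

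Windows were found for 38 of the 46 genes. The match was in 5 of these 38 genes and in 3.44% of all 32851 windows. The letters were not in either window of Psme2 or in that of Psme3. Of the other 4 genes with the letters, none was called against naïve after PolyIC. The letters TGACNNNGC, a core of the antioxidant response element through which proteasome genes are known to be induced, were in 6 of 38 genes (Psmb5, Psmb6, Psmc6, Psmd9, Psmd12 and Psme4) and in 12.4% of all windows. A match is only a description of these letters.

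Over the means of the 9 conditions, the probes most like Psme1 were those of Kcnab1 (r = 0.989), Apol9a (0.977), Slc43a3 and Tapbp (0.976 each), Tapbp being the MHC class I peptide-loading protein tapasin, and 1 probe with no gene symbol (0.975). The most like Psme2 was a probe without a gene name (r = 0.993), followed by Slc2a6 (0.945), Stk38l and Cd47 (0.939 each) and Frmd3 (0.937). These correlations cover 9 points that share normalization and slides.

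The constitutive catalytic subunits moved little against naïve. Psmb5, the chymotrypsin-like site, had 15.84, 15.48 and 16.25 in naïve cells and 16.5 and 16.36 after LPS re-stimulation, the only ligand whose re-stimulated arrays did not overlap with naïve. It was not called against naïve in any state, with re-stimulated differences of 0.57 (LPS), 0.45 (CpG), 0.60 (Pam3CSK4) and 0.42 (PolyIC). Psmb6, the caspase-like site, had 15.71, 15.48 and 15.87 in naïve cells and 16.37, 16.56 and 16.07 after PolyIC re-stimulation (0.65 ± 0.21, limma adjusted p = 0.126), and its differences for re-stimulated CpG and Pam3CSK4 were -0.08 and -0.06. Psmb7, the trypsin-like site, lay above all naïve arrays with each re-stimulated ligand, with 13.17 and 12.94 for LPS, 13.13, 12.89 and 13.14 for CpG, 13.01, 13 and 13.21 for Pam3CSK4 and 13.17, 12.94 and 13.1 for PolyIC, against 12.57, 12.4 and 12.78.

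The immunoproteasome subunits that take their places had larger values after PolyIC re-stimulation, a difference that was not tested. There Psmb9, Psmb10 and Psmb8 rose by 2.02 ± 0.40, 1.88 ± 0.29 and 1.97 ± 0.28 (limma adjusted p = 0.0378, 0.0213 and 0.0181). After CpG re-stimulation the values were 0.13, -0.18 and 0.84, none called. Psmb10 also rose with acute LPS (1.14 ± 0.18, adjusted p = 0.00713) and acute PolyIC (1.30 ± 0.20, adjusted p = 0.0276), and Psmb8 with LPS re-stimulation (1.25 ± 0.21, adjusted p = 0.0499).

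**Figure D4:**
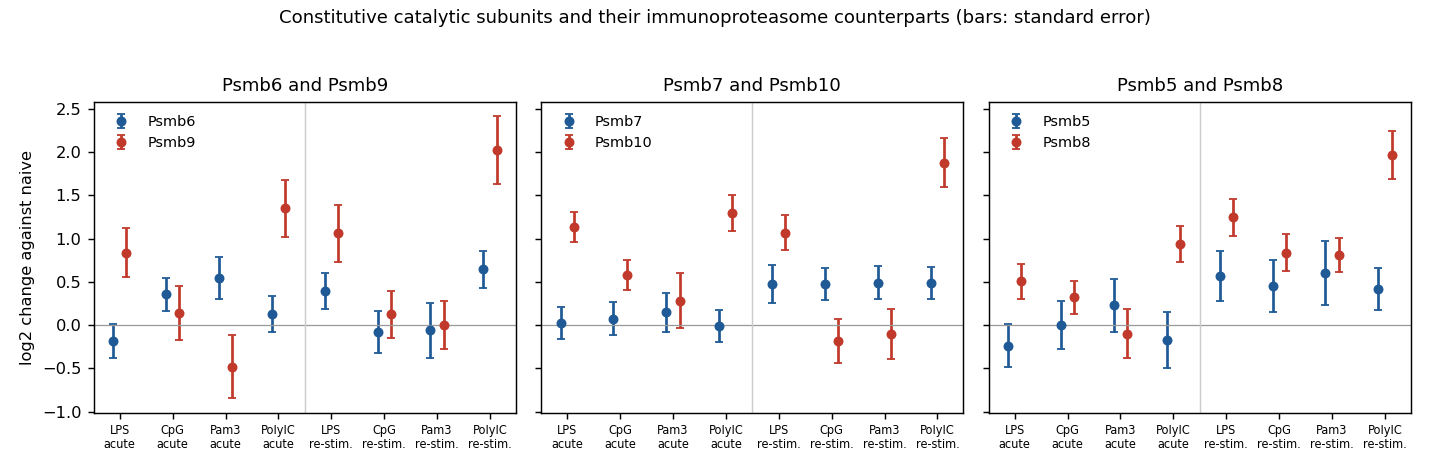
Log2 change against naïve (vertical axis) with standard errors for the constitutive catalytic subunits (blue) and the immunoproteasome subunit that takes each one's place (red), in acute and re-stimulated cells (horizontal axis). After PolyIC re-stimulation the red points lie between 1.88 and 2.02 and the blue points between 0.42 and 0.65.

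Among the other members, Psma6, a core alpha subunit, had 13.11, 12.95 and 13.98 in naïve cells and 14.85, 14.44 and 15.03 after CpG re-stimulation, where it rose by 1.43 ± 0.33 (2.69-fold, limma adjusted p = 0.0455; 0.0473 with the replicate block). The values were 14.83, 14.65 and 14.8 after Pam3CSK4 re-stimulation (1.42 ± 0.31, adjusted p = 0.0621) and 14.73, 14.63 and 14.25 after acute CpG (1.20 ± 0.33, 0.104). Naïve replicate 3 stood above the other naïve arrays, and without it the CpG re-stimulated change was 1.75 (adjusted p = 0.00815). Without any other 1 of these arrays the call was lost (adjusted p up to 0.136). PolyIC and LPS arrays overlapped with naïve, but the F test among ligands did not call Psma6 (adjusted p = 0.109 acute and 0.232 re-stimulated).

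Psmd14, the 19S deubiquitinase that strips ubiquitin chains, rose by 0.76 ± 0.18 after CpG re-stimulation, from 10.97, 10.84 and 11.21 to 11.79, 11.69 and 11.83 (limma adjusted p = 0.0466). Psmb2 rose by 0.66 ± 0.16 there, from 10.64, 10.61 and 10.75 to 11.26, 11.34 and 11.39 (adjusted p = 0.0478). With the replicate block the adjusted p was 0.0803 for Psmd14 and 0.0946 for Psmb2, and both calls were lost without any array other than naïve replicate 3 (up to 0.154 and 0.157). Psmd8, a 19S lid subunit, went the other way from most members. It was 13.9, 13.88 and 13.62 in naïve cells, 12.98, 13.28 and 12.96 after CpG and 12.91, 13.11 and 13.24 after Pam3CSK4 re-stimulation, with no overlap. It was not called in the 2-group fits (-0.72 ± 0.19, limma adjusted p = 0.0608; -0.71 ± 0.19, 0.0962) and was called lower in the 9-group fit (0.0401 and 0.0483).

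Psmd11, a 19S lid subunit, lay above naïve (11.3, 11.12 and 11.38) on every re-stimulated array, with 12.08 and 12.19 for LPS, 12.01, 11.88 and 11.86 for CpG, 12.02, 11.84 and 12.3 for Pam3CSK4 and 11.57, 12 and 11.57 for PolyIC. The differences were between 0.45 and 0.87 and did not pass (limma adjusted p = 0.0589 to 0.229). Psma5, a core alpha subunit, also lay above naïve (13.62, 13.22 and 13.85) with each re-stimulated ligand, most with PolyIC at 14.37, 14.37 and 14.26 (0.77 ± 0.22, limma adjusted p = 0.0895). The 19S ATPase Psmc6 had 11.83, 11.7 and 11.93 after CpG re-stimulation against 11.27, 11.17 and 11.51 in naïve cells (0.51 ± 0.18, adjusted p = 0.125), and Psmc5, another ATPase, had 12.85, 13.15 and 13.27 after PolyIC re-stimulation against 12.35, 12.12 and 12.84 (0.66 ± 0.26, 0.173). The core chaperones did not share this direction throughout: Psmg2 had 9.657 and 9.834 after LPS re-stimulation, below the naïve arrays at 9.902, 10.1 and 10.51 (-0.43 ± 0.26, adjusted p = 0.381), and Psmg3 had 11.47, 11.45 and 11.31 after Pam3CSK4 re-stimulation, above naïve at 10.89, 10.89 and 11.15 (0.43 ± 0.18, 0.213).

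Among chaperones, Psmd10 (gankyrin, which escorts a 19S ATPase) had 9.927, 10.08 and 10.89 in naïve cells and 12.17, 12.04 and 11.54 after PolyIC re-stimulation, where it rose by 1.62 ± 0.33 (3.07-fold, limma adjusted p = 0.0413; 0.102 with the replicate block). Its mean was above naïve with all 4 ligands in both states, by 0.74 to 1.26 in the other 7 comparisons (adjusted p 0.0747 to 0.473), and the second Psmd10 probe was called higher with all 4 re-stimulated ligands in the 9-group fit (1.38 to 1.87). The PolyIC call was lost without 4 of the 6 arrays (adjusted p up to 0.149). Psmd5, another 19S chaperone, differed among acute CpG, Pam3CSK4 and PolyIC by the F test, which left out acute LPS for its own slides (range of means 1.16, adjusted p = 0.0209), 1 of 44 genes against 5.91% of all probes. It had 12.01 and 11.19 with Pam3CSK4, 11.38, 11.41 and 10.71 with CpG, and 10.61, 10.38 and 10.33 with PolyIC, and Pam3CSK4 exceeded PolyIC by 1.16 ± 0.26 (adjusted p = 0.00946). The F test was lost without acute Pam3CSK4 replicate 1 (adjusted p = 0.0918) and without each of the 3 acute PolyIC arrays (0.0531 to 0.101). It was also lost with all 27 arrays (range 0.70, adjusted p = 0.52) and with median scaling (0.489).

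**Figure D5:**
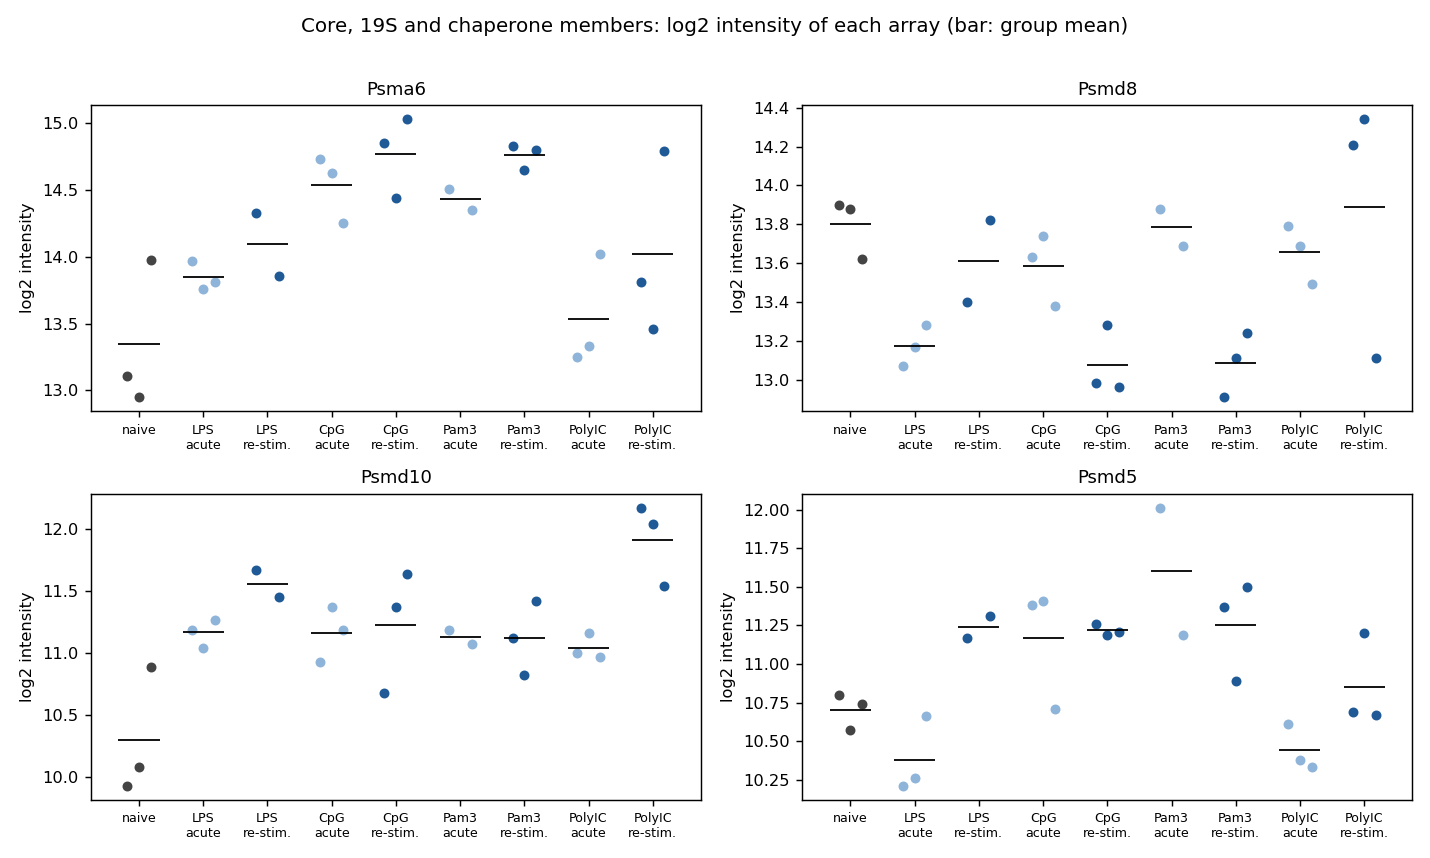
Log2 intensity (vertical axis) of Psma6, Psmd8, Psmd10 and Psmd5 on each array (points) in the 9 conditions (horizontal axis), with bars at group means. CpG and Pam3CSK4 re-stimulated arrays are high for Psma6 (14.44 to 15.03) and low for Psmd8 (12.91 to 13.28), Psmd10 is highest after PolyIC re-stimulation, and Psmd5 is higher with acute Pam3CSK4 than with acute PolyIC.

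In acute cells few members passed. With LPS, Psme2 rose, and the core chaperone Psmg1 (-0.80 ± 0.22) and Psmc3ip (-1.003 ± 0.27), which is a meiotic recombination protein and no proteasome subunit, fell (limma adjusted p = 0.0424 and 0.0372). These were 3 of 44 genes, against 25.2% of all probes called. Psmg1 was 11.51, 11.4 and 11.12 against 11.89, 12.13 and 12.4 in naïve cells, and Psmc3ip 5.797, 5.713 and 5.987 against 6.537, 6.636 and 7.334, with no overlap for either. Both calls were lost with median scaling (adjusted p = 0.805 and 0.56). That of Psmg1 was lost without each array in turn (up to 0.12), and that of Psmc3ip without any but naïve replicate 3 (up to 0.127). The second, dimmer probe of Psmg1 differed from naïve by only -0.10 with acute LPS.

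No gene was called after acute CpG (4.46% of all probes), Pam3CSK4 (0%) or PolyIC (4.93%). There limma gave 4, 4 and 4 genes an unadjusted p under 0.05, against 21.8%, 11.4% and 20.9% of all probes. The 9-group fit called 6, 2 and 5 of the 56 probes (16.2%, 5.28% and 14%).

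Between acute and re-stimulated LPS, 12 of 44 genes rose and none fell (31.1% of all probes called, 16.1% higher). They were Psma1, Psma7, Psmb3 and Psmb5 of the core, Psmc1, Psmc2, Psmd1 and Psmd3 of the 19S cap, Psme3, Psmf1 and the chaperones Psmd5 and Psmg3. Without Psme3, the log2 differences were between 0.68 and 1.11. In 32 of 44 genes the re-stimulated arrays lay above all acute arrays (31.7% of all probes). The call of Psme3 held without each of the 5 arrays. Those of Psma1, Psmb3 and Psmf1 were lost without 3 of the 5 (adjusted p up to 0.0973), those of Psma7, Psmb5, Psmc1, Psmd1, Psmd3, Psmd5 and Psmg3 without 4 (up to 0.196), and that of Psmc2 without each (up to 0.181). These 2 groups share no slide. With all 27 arrays no member probe was called higher and 1 of 56 lower, against 14 and 1 here. That count is given without the share of all probes called with 27 arrays, so it is not read as a result about the members. Re-stimulated CpG, Pam3CSK4 and PolyIC gave 0 called genes against their acute state (1.1%, 0% and 3.01% of all probes; unadjusted p under 0.05 for 4, 1 and 13 genes, against 19.1%, 11.9% and 23.7%). The 9-group fit called 1, 0 and 13 of 56 probes there (5.68%, 2.4% and 12.4% of all). The medians over the 44 genes were 0.27, 0.12 and 0.36, and with PolyIC 27 genes did not overlap (15.7% of all probes).

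Several of these genes lay below naïve in acute cells and above it in re-stimulated cells. Psmb3 had 14.73, 14.62 and 15.09 in naïve cells, 14.32, 14.16 and 14.2 with acute LPS and 15.32 and 15.14 after re-stimulation. Psma7 had 14.74, 14.58 and 14.93, then 14.31, 14.3 and 14.1, then 15.37 and 15.03. Psma1 had 13.75, 13.93 and 13.98, then 13.54, 13.52 and 13.1, then 14.37 and 14.34. For these 3 core subunits no array of 1 state overlapped with another, but neither state was called against naïve (limma adjusted p = 0.079 to 0.344). The share of all probes with this pattern was not counted, so the pattern is not read as a result about these genes. Over the 14 core genes the acute LPS differences from naïve were mixed, from -0.585 to 0.503. Acute LPS cannot be told apart from slide, and the sign of its core median against naïve turned with the scaling. The ATPase Psmc1 had 15.11, 14.83 and 15.49 in naïve cells, 14.45, 14.49 and 14.66 with acute LPS and 15.63 and 15.32 after re-stimulation. By this probe only the acute arrays stood apart. The second, dimmer Psmc1 probe disagreed, with means of 13.07 in naïve, 13.03 in acute LPS and 13.5 in re-stimulated LPS cells.

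Of 33 other genes of the pathway listed (immunoproteasome, assembly factors, transcription factors of proteasome genes, 19S partners, ubiquitin shuttles and ubiquitin genes), 31 were tested. Against naïve the calls were 3 higher and 3 lower for acute LPS (25.2% of all probes called), 1 and 0 for acute CpG (4.46%), 0 for acute Pam3CSK4 (0%), and 1 and 1 for acute PolyIC (4.93%). In re-stimulated cells they were 1 and 0 for LPS (3.98%), 1 and 1 for CpG (11.3%), 0 for Pam3CSK4 (3.94%), and 3 and 0 for PolyIC (7.66%), the last being Psmb8, Psmb9 and Psmb10. Zfand2a, a proteasome-associated arsenite-inducible protein, fell with acute LPS by 2.32 ± 0.31 (limma adjusted p = 0.00411), acute PolyIC by 1.69 (0.0358) and re-stimulated CpG by 1.31 (0.0357). Zfand5, a ubiquitin-binding proteasome activator, rose with acute CpG (0.98 ± 0.19, adjusted p = 0.0477) and re-stimulated CpG (1.30 ± 0.17, 0.0127). Nfe2l1, the transcription factor known to drive proteasome genes, was not called against naïve (differences -0.15 to 0.99, adjusted p 0.148 or more).

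The size of the shared core and 19S shift depends on the scaling. The authors' quantile normalization sets all arrays to 1 distribution. Recomputed values with median scaling put the median of all tested probes at 0.40 to 0.75 for re-stimulated against naïve cells, and the core and 19S medians at 1.10 to 1.66. Relative to all probes, the core and 19S medians remained higher under both. They were also above the 4569 tested probes of similar brightness (mean log2 intensity of at least 12, a comparison chosen after seeing the data). For re-stimulated cells against naïve, the 27 core and 19S genes of that brightness had medians of 0.34 to 0.42, against -0.19 to -0.05 for the bright probes, and with median scaling 1.14 to 1.61 against 0.59 to 1.15. For acute LPS the signs of the 19S median (-0.27 and, with median scaling, 0.28) and of the core median (-0.08 and 0.42) turned with the scaling, and for acute PolyIC that of the 19S median (-0.14 and 0.49). The medians of all probes with median scaling were 0.20 and 0.28 there. For acute LPS, the 27 bright core and 19S genes had medians of -0.24 and 0.29, against -0.18 and 0.30 for the bright probes.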

How the data were processed

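RNA of 27 macrophage samples was hybridised to 1-colour Agilent arrays (62976 spots each). The deposited values are log2 intensities that the authors background-corrected and quantile-normalized with RMA and limma. They cover 25 arrays, and 2 arrays of low quality were left out by the authors. The deposited scanner files gave the spot intensity, the background flags and the gene names. Array positions are mm9. No column of other samples was present (0).

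Probes that the scanner flagged as well above background on 2 or more arrays of any condition were tested with limma 3.58.1 in R 4.3.3, in pairwise fits of the 2 groups compared, with Benjamini-Hochberg adjustment (threshold 0.05) over all 30814 probes. Differences between ligands were tested by a moderated F test in 1 fit over the 9 groups. Scripts were tested on simulated data. The number of arrays limits the precision.

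Genes given with their values were Psme1 to Psme4, Psmb5, Psmb6, Psmb7, Psmf1 and, in each class, the gene with the smallest adjusted p in the comparisons with naïve. Promoter stretches are shown for every member gene with the interferon-response letters. The members and lists were chosen with earlier results of these data known. Replicate numbers equal the slide for all groups but acute LPS. After subtraction of group means, arrays with the same number correlated by 0.104 to 0.437 in the CpG and PolyIC comparisons and in re-stimulated Pam3CSK4 against naïve (3 pairs each), so that the numbers pair the arrays there. Alternatives were median scaling, normexp background correction (offset 50), no detection filter, all 27 arrays recomputed from the scanner intensities, the 9-group fit with and without the slide as a random block, the replicate block, and each array left out in turn.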

Additional observations from a re-analysis of the deposited data

Results flagged for a closer look

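The level differed between ligands, by the moderated F test, for 4 of 56 probes in re-stimulated cells and 2 of 56 in acute cells. Of all probes, 7.56% and 5.91% did so, so the members did not exceed the share of the whole array. In re-stimulated cells the range of the log2 means was 1.66 for Psme1, 1.12 for the brightest Psme2 probe, 1.14 for the second Psme2 probe and 4.7 for the third. In acute cells it was 4.51 for the third Psme2 probe and 1.16 for Psmd5. Among the ligands tested, the third Psme2 probe was highest with PolyIC and lowest with Pam3CSK4 in both states, and the acute test left out LPS.

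The re-stimulated LPS array that has no deposited value (replicate 3) had a Psme3 log2 intensity of 12.42 when all 27 arrays were normalized together. The naïve arrays were at 10.84, 11.33 and 10.05 and the other re-stimulated LPS arrays at 13.95 and 14 on the same scale. The Pam3CSK4 acute array without deposited values was at 7.798.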

How the results depend on the processing

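For the genes given with their values, by the probe that stands for each, no change turned its direction while called under any alternative run. Other genes and probes were not checked for this. Of the 56 probes, the pairwise fits called 5, 0, 0 and 2 for acute LPS, CpG, Pam3CSK4 and PolyIC against naïve, 15, 0, 0 and 2 for re-stimulated against acute, and 1, 5, 1 and 5 for re-stimulated against naïve, each in that order of ligands, which is kept below. The 9-group fit called 21, 6, 2 and 5, then 25, 1, 0 and 13, then 10, 13, 15 and 15. Of all probes it called 36%, 16.2%, 5.28% and 14%, then 31.5%, 5.68%, 2.4% and 12.4%, then 17%, 20.7%, 17% and 20.2%. With the slide as a random block (correlation 0.22) it called 24, 8, 5 and 11, then 34, 7, 1 and 22, then 29, 24, 25 and 23, and the share of all probes called was higher too (5.73% to 36.9%, against 0% to 31.1% in the pairwise fits). The counts below are those that moved by over 1.5 times. They, and the later counts with the replicate block and with arrays left out, are given without the share of all probes called. They are therefore not read as a result about the members. With normexp background correction they were 17, 3 and 5 (acute LPS, CpG, PolyIC), 28 and 7 (re-stimulated against acute LPS and PolyIC), and 7, 10, 6 and 10 against naïve. With median scaling they were 2, 1 and 1 (acute LPS, CpG, PolyIC), 1 (CpG against acute), 16 and 3 (CpG and Pam3CSK4 against naïve), and 1 and 1 of 2 and 4 probes that differed between acute and re-stimulated ligands. Without the detection filter they were 2 and 0 (acute LPS, PolyIC), 7 and 0 (LPS and PolyIC against acute), 0, 1 and 2 (LPS, CpG, PolyIC against naïve), and 2 between re-stimulated ligands. With all 27 arrays they were 1 (acute PolyIC), 1 and 0 (re-stimulated LPS against acute and naïve), and 0 and 1 between acute and re-stimulated ligands. The causes were not tested.

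With the replicate number as a block, the counts that moved by over 1.5 times were 1 and 1 (acute LPS, PolyIC), 0 (PolyIC against acute), and 4, 0 and 1 (LPS, Pam3CSK4, PolyIC against naïve). In the LPS comparisons same-numbered arrays correlated by only 0.0103 to 0.0951, so these correlations give the block no basis there. Re-stimulated LPS and naïve arrays of the same number did share a slide, unlike those of acute LPS. Acute LPS lost Psme2 (adjusted p = 0.0635), Psmg1 (0.108) and Psmc3ip (0.0524) with it, re-stimulated against acute LPS lost Psmc2 (0.0671) and Psmd1 (0.0515), and re-stimulated LPS kept Psme3 against naïve (0.021).

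Leaving out 1 array in turn gave 1 to 10, 0 to 5, 0 to 0 and 0 to 6 probes for the acute comparisons, 2 to 19, 0 to 1, 0 to 0 and 0 to 5 for re-stimulated against acute, 0 to 7, 0 to 9, 0 to 5 and 0 to 6 against naïve, and 1 to 3 and 2 to 7 between acute and re-stimulated ligands. With 2 or 3 arrays a group, most differences of the size seen for core and 19S genes did not pass the test.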
